A study of Rattus norvegicus with 11 samples.

Results

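Gar1, Nop56, Nop58, Fbl, Dkc1, Ncl, Npm1 and Nolc1 encode abundant proteins of the nucleolus and of the small nucleolar ribonucleoprotein particles (snoRNPs). Their probe sets were chosen by gene symbol in the annotation of the array platform. The genes themselves were chosen with earlier results of these data known. Of the 8 genes, 7 were carried by 9 probe sets with that single symbol, out of 15866 probe sets tested, which name 10411 genes. Nolc1 had 3 of these probe sets and the other genes 1 each. Npm1 was found only on 3 probe sets that also carry the symbol Npm1-ps9, a pseudogene, so their signal cannot be assigned to 1 of the pair and they are described apart.

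The signals came from 11 Affymetrix RAE230A arrays hybridised with RNA of REF52 cells, a rat embryo fibroblast line. All cells were grown in 10% serum and held in 0.25% serum for 48 hours before infection with an adenovirus that expresses the transcription factor E2F1 or with a control adenovirus, labelled CMV. Medium was then added back to give, in order, deprivation, serum, or serum with LY294002, an inhibitor of phosphoinositide 3-kinase (PI3K). The E2F1 virus was represented by 2 arrays in each of the 3 media. The control virus was represented by 1 array in deprivation, 2 in serum and 2 with LY294002. E2F1 was thus delivered in excess from a virus in every comparison, and the labels give neither the dose of LY294002 nor the time of harvest. Separate cultures are not named for the arrays of a group. The p-values therefore measure only array-to-array spread, which may be technical. E2f1 itself had 0 probe sets with that single symbol and the introduced gene was not analysed here.

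Box C/D snoRNPs direct methylation of ribose in ribosomal RNA. Fbl (fibrillarin) is their methyltransferase, and Nop56 and Nop58 are paired core proteins that hold the guide RNA. Box H/ACA snoRNPs convert uridine to pseudouridine. Dkc1 (dyskerin) is their pseudouridine synthase, Gar1 is a core protein that helps the target RNA to load and leave, and both also belong to the telomerase particle. Ncl (nucleolin) binds nascent ribosomal RNA, Npm1 (nucleophosmin) is a histone and ribosome chaperone, and Nolc1 (Nopp140) binds both classes of snoRNP on their way between Cajal bodies and the nucleolus. Proliferating cells are known to make more of these proteins than resting cells.

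All 8 genes had a promoter window in RefSeq, on build GRCr8 of the rat genome, which runs from 250 bases before to 50 bases after the annotated transcription start. The windows were searched on both strands for 4 words of the kind bound by E2F proteins (TTTCGCGC and TTTGGCGC, TTTCCCGC and TTTGCCGC) and for the E-box CACGTG, which is bound by MYC and related factors. Shown here are Gar1, whose signal differed most between viruses, and the genes of the called box C/D and box H/ACA proteins whose window held a match, with the match in capitals. The Gar1 window is chr2:221056700-221056999 on the minus strand and held 0 matches. The Nop58 window is chr9:68614824-68615123 on the plus strand, around a start that lies 82 bases inside the gene record, and held TTTCCCGC on the opposite strand, 121 bases before the start. The Fbl window is chr1:92597157-92597456 on the plus strand and held CACGTG 22 bases after the start. The Dkc1 window is chrX:157751401-157751700 on the plus strand and held CACGTG 184 bases before the start.
Gar1: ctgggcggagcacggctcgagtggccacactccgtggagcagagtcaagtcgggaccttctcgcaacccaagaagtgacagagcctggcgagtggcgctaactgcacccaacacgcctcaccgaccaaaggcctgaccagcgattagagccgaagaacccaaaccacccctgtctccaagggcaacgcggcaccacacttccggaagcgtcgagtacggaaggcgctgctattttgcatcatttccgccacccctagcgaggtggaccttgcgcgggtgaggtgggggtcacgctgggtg
Nop58: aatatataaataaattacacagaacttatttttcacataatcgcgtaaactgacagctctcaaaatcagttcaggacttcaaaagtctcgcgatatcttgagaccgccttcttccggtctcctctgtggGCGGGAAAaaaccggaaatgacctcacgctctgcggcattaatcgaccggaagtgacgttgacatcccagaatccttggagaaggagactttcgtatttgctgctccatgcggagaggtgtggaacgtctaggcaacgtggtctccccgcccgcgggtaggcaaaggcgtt
Fbl: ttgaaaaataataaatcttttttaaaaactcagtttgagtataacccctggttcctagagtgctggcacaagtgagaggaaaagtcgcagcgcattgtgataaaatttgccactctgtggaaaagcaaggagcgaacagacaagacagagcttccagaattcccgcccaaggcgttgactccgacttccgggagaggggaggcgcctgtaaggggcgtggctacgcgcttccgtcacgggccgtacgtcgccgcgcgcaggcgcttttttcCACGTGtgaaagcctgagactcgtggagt
Dkc1: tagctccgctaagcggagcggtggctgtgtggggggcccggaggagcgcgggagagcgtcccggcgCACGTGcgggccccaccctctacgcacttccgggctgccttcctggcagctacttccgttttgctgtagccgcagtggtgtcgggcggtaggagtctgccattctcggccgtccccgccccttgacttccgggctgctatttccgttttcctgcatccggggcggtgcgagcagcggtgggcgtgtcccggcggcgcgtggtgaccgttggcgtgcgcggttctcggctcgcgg
The Nolc1 window, chr1:254870109-254870408 on the plus strand, held TTTCCCGC 245 bases before the start, and the windows of Nop56, Ncl and Npm1 held 0 matches. Their start lies inside the gene record by 164 bases in Nolc1, 172 in Npm1 and 3992 in Nop56, so the Nop56 window is not at the outer end of its gene. An E2F-type word was thus found in 2 of the 8 windows, against 2.14% of 33469 RefSeq promoter windows of the same length, and CACGTG in 2 of 8, against 6.42%. The share of G and C was 48.7% in Nop58 and 52.3% in Fbl, against a median over all windows of 51.7%, and 61.7% to 70.3% in the other windows. They held 21 to 38 CpG pairs each, and the median window held 7. These are matches of letters only, and the shares were not tested.

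The arrays were scaled alike, with a mean signal of 500 after trimming 2% at each end, and median signals of 173 to 208. A log2 difference between 3′ and 5′ probe sets of control transcripts, a sign of RNA length, reached 0.90 on array 2 of E2F1 cells with LY294002 and 0.51 to 0.76 in deprivation, against 0.12 to 0.33 on the others. Of 10 fibroblast markers measured, 7 lay above the array median on all arrays, among them Col1a1, Col3a1 and Vim, while Thy1, Lum and Dcn lay below it on all. Of 22 measured markers of other cell types, 0 lay above the median on all arrays and 16 lay below it on all. Syp lay above it on 10 arrays, Krt8 on 9, Myod1 on 8, Des on 7, Ckm on 2 and Gfap on 1. In the average over the media 2 fibroblast markers fell, Pdgfrb (log2 change −1.90 ± 0.36 SE, limma adjusted p = 0.0109) and Sparc (−0.75 ± 0.13, limma adjusted p = 0.00891), and of the other markers Kdr and Tie1 rose and Ptprc fell, all 3 with signals of at most 54.0 on every array. In RNA of whole cultures, fewer cells of a type and less RNA per cell cannot be told apart. The virus labels were checked on Ccne1, the gene of cyclin E1 and a known E2F target, which had 1550 to 3236 units in E2F1 cells and 141 to 332 units in control virus cells.

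With E2F1, 6 of the 7 genes rose in the average over the 3 media. Gar1 rose 4.46-fold and Nop56 2.53-fold. Fbl, Dkc1, Nop58 and Ncl rose between 1.71-fold and 1.91-fold. Nolc1 rose on 1 of its 3 probe sets. In all, 7 of the 9 probe sets were called higher and 0 lower, in a comparison in which 9.23% of all probe sets were called higher and 16.5% in either direction. The median log2 change was 0.86 over the 7 genes, with Nolc1 represented by its brightest probe set, and −0.04 over all probe sets tested.

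**Figure D1:**
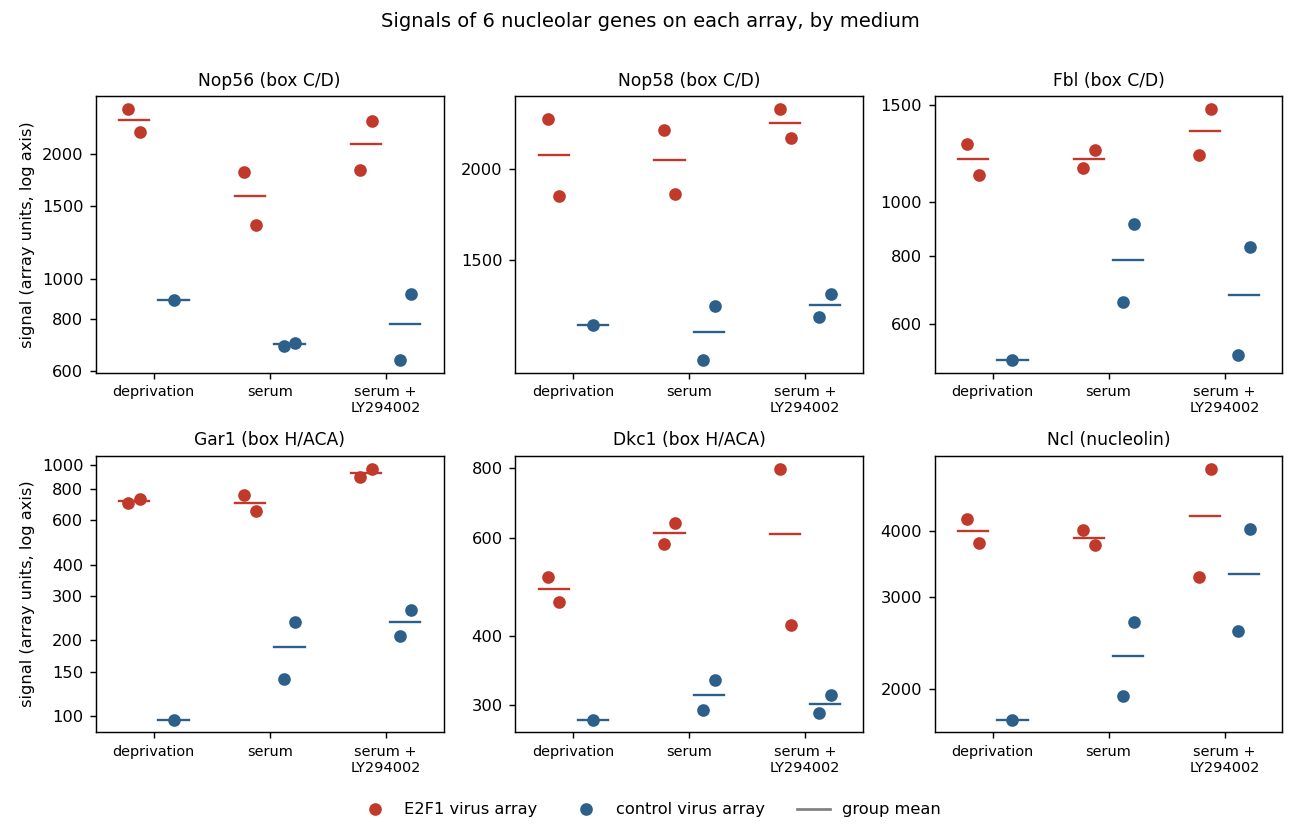
Signals of Nop56, Nop58, Fbl, Gar1, Dkc1 and Ncl on each of the 11 arrays (array units, log axis), 1 panel per gene, by medium, with E2F1 arrays left of control virus arrays and lines at the group means (in deprivation the control virus has 1 array). The Gar1 points of E2F1 cells sit between 653 and 966 and those of control virus cells between 96.8 and 265.

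Among the box C/D proteins, Nop56 differed most between the viruses. In E2F1 cells Nop56 had signals of 2575 and 2262 in deprivation, 1814 and 1351 in serum, and 1836 and 2404 with LY294002. In control virus cells Nop56 had 889 in deprivation, 690 and 702 in serum, and 637 and 917 with LY294002. Every E2F1 array lay above every control virus array, and the E2F1 arrays in serum were the lowest of their virus. The average log2 change of Nop56 was 1.34 ± 0.15 (SE; limma adjusted p = 0.00193, 6 arrays against 5).

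Its partner Nop58 gave a narrower pattern. Nop58 had 2345 and 1834 in deprivation, 2265 and 1846 in serum, and 2418 and 2207 with LY294002 in E2F1 cells. With the control virus it had 1219 in deprivation, 1092 and 1294 in serum, and 1253 and 1347 with LY294002. The viruses did not overlap on any array, and the media lay close together within each virus. The average log2 change of Nop58 was 0.79 ± 0.12 (limma adjusted p = 0.00537).

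Fbl, the methyltransferase, had 1274 and 1120 in deprivation, 1157 and 1244 in serum, and 1219 and 1478 with LY294002 in E2F1 cells. The control virus arrays of Fbl read 517 in deprivation, 660 and 912 in serum, and 527 and 830 with LY294002. The E2F1 arrays were close to one another and all lay above the control virus arrays, which varied more, with the second array of both pairs the higher. The average log2 change of Fbl was 0.93 ± 0.16 (limma adjusted p = 0.00762).

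Of the box H/ACA proteins, Gar1 had the widest gap of all members. Gar1 had 704 and 733 in deprivation, 755 and 653 in serum, and 896 and 966 with LY294002 in E2F1 cells. In control virus cells Gar1 had 96.8 in deprivation, 140 and 237 in serum, and 209 and 265 with LY294002. The lowest E2F1 array, in serum, stood well above the highest control virus array, and the deprived control array was the lowest of all. The average log2 change of Gar1 was 2.16 ± 0.15, with a 95% interval of 1.80 to 2.51 (limma adjusted p = 0.000479). It ranked 101st of the 15866 probe sets when these were ordered by their average log2 change from the highest down, and the next member, Nop56, ranked 292nd.

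Dkc1, the pseudouridine synthase, had 510 and 460 in deprivation, 585 and 638 in serum, and 798 and 418 with LY294002 in E2F1 cells. With the control virus Dkc1 had 283 in deprivation, 294 and 333 in serum, and 291 and 313 with LY294002. All E2F1 arrays lay above all control virus arrays, but the E2F1 arrays with LY294002 were its highest and its lowest in that virus, 0.91 apart on the log2 scale. The average log2 change of Dkc1 was 0.86 ± 0.17 (limma adjusted p = 0.0141).

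Ncl, which binds nascent ribosomal RNA, had 4219 and 3804 in deprivation, 4014 and 3765 in serum, and 3274 and 5266 with LY294002 in E2F1 cells. In control virus cells Ncl had 1752 in deprivation, 1940 and 2686 in serum, and 2581 and 4040 with LY294002. The viruses overlapped: 2 of the 6 E2F1 arrays exceeded the highest control virus array, which was the second with LY294002. The second array with LY294002 lay above the first by 0.68 in E2F1 cells and by 0.64 in control virus cells on the log2 scale. The average log2 change of Ncl was 0.77 ± 0.19 (limma adjusted p = 0.0295).

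The 3 probe sets of Nolc1 differed in pattern as well as in signal. The brightest had 1055 and 960 in deprivation, 794 and 816 in serum, and 749 and 969 with LY294002 in E2F1 cells, against 707 in deprivation, 709 and 718 in serum, and 600.4 and 724 with LY294002 in control virus cells. Its viruses did not overlap, with the first E2F1 array with LY294002 just above the highest control array, and its average log2 change was 0.34 ± 0.12 (limma adjusted p = 0.0830). The middle one had 455 to 683 in E2F1 cells and 286 to 511 in control virus cells, which overlapped, and rose by 0.58 ± 0.16 on the log2 scale (limma adjusted p = 0.0437). The dimmest had 72.6 to 241 in E2F1 cells and 79.6 to 129.6 in control virus cells, with an average log2 change of 0.37 ± 0.14 (limma adjusted p = 0.117). Only the middle probe set passed the threshold, so whether Nolc1 is counted as raised depends on the probe set used.

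**Figure D2:**
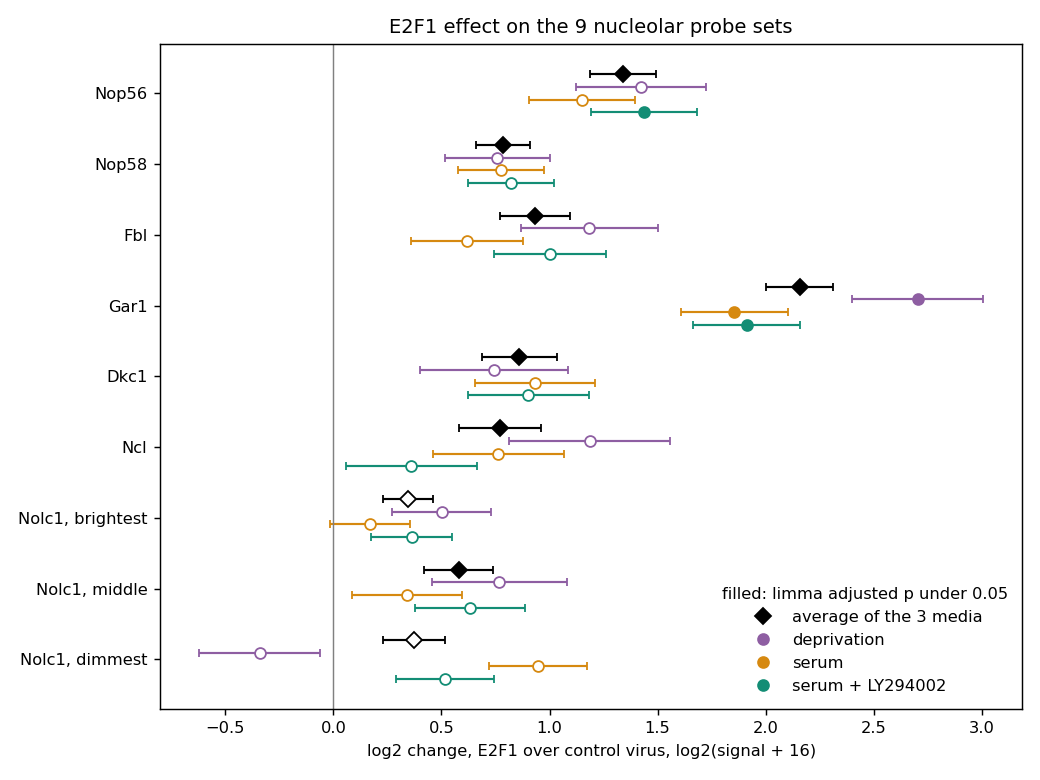
Log2 change of each member probe set, E2F1 over control virus, averaged over the media and in each medium, as points with bars of 1 SE from limma, filled where the adjusted p was under 0.05. Gar1 lies farthest from 0 in every comparison, and the dimmest Nolc1 probe set lies below 0 in deprivation alone.

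In 6 of the 9 probe sets all 6 E2F1 arrays lay above all 5 control virus arrays. These were the probe sets of Nop56, Nop58, Fbl, Gar1, Dkc1 and the brightest of Nolc1. The same pattern, in this direction, was shown by 6.05% of all probe sets. When single arrays were left out in turn (10 of the 11, since the average needs the deprived control array), Gar1, Nop56, Nop58, Fbl and Dkc1 were called each time. The call of Ncl was lost without either deprived E2F1 array, either E2F1 array in serum, the first control array in serum or the first control array with LY294002 (limma adjusted p = 0.0530 to 0.0824 there), and that of the middle Nolc1 probe set was kept only without the second E2F1 array with LY294002 or the second control array in serum. The Ncl call was also lost when each array was centred on its median (limma adjusted p = 0.0522).

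The shared Npm1 and Npm1-ps9 probe sets did not pass the test in the average. The brightest had 3411 to 5722 in E2F1 cells and 3771 to 6881 in control virus cells, a log2 change of −0.21 ± 0.20 (limma adjusted p = 0.540). The middle one had 1587 to 3858 in E2F1 cells and 2771 to 4821 in control virus cells, and the dimmest had 204 to 376 in E2F1 cells and 241 to 669 in control virus cells. They gave log2 changes of −0.34 ± 0.26 and −0.29 ± 0.25 (limma adjusted p = 0.432 and 0.502). All 3 values lie on the other side of 0 from the members, with overlapping signals. The differences between these probe sets and the members were not tested.

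Within single media, fewer members passed the test, with 2 arrays against 2 or 1. In serum Gar1 rose 3.62-fold (log2 change 1.85 ± 0.25, limma adjusted p = 0.0435) and was the only member called, 1 of 9 probe sets where 0.29% of all were called higher. All 9 probe sets had values above 0. Nop56 had a log2 change of 1.15 ± 0.25 (limma adjusted p = 0.0955), Dkc1 0.93 ± 0.28 (limma adjusted p = 0.175), Nop58 0.78 ± 0.20 (limma adjusted p = 0.127), Ncl 0.76 ± 0.30 (limma adjusted p = 0.287) and Fbl 0.62 ± 0.26 (limma adjusted p = 0.309). The Gar1 call in serum was kept without the deprived control array or the second control array in serum and lost without any 1 of the other 9 arrays (limma adjusted p = 0.0504 to 0.267 there).

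With LY294002 Gar1 rose 3.76-fold (log2 change 1.91 ± 0.25, limma adjusted p = 0.0117) and Nop56 rose 2.71-fold (1.44 ± 0.25, limma adjusted p = 0.0223), 2 of 9 probe sets where 3.78% of all were called higher. Fbl had a log2 change of 1.00 ± 0.26 (limma adjusted p = 0.0677), Dkc1 0.90 ± 0.28 (limma adjusted p = 0.108) and Nop58 0.82 ± 0.20 (limma adjusted p = 0.0549). Ncl had 0.36 ± 0.30 (limma adjusted p = 0.559), the only member whose arrays overlapped between the viruses within a medium. The second E2F1 array with LY294002, which had the largest 3′ to 5′ difference, bore on these values: without it the Gar1 call was lost (1.86, limma adjusted p = 0.0502), the Nop56 call was lost (1.25, limma adjusted p = 0.0859), the Ncl value was 0.02, and Dkc1 was called at 1.36 (limma adjusted p = 0.0400). When this 3′ to 5′ measure entered as a covariate, the Nop56 call was lost (1.19, limma adjusted p = 0.0696) and Dkc1 was called at 1.33 (limma adjusted p = 0.0427). The Nop56 call was also lost without either deprived E2F1 array (1.44, limma adjusted p = 0.0527) or without the first control array with LY294002 (1.18, limma adjusted p = 0.0760).

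In deprivation, with a single control array, Gar1 rose 6.51-fold (log2 change 2.70 ± 0.30, limma adjusted p = 0.0181), 1 of 9 probe sets where 2.19% of all were called higher. Nop56 had a log2 change of 1.42 ± 0.30 (limma adjusted p = 0.0517), Ncl 1.19 ± 0.37 (limma adjusted p = 0.129), Fbl 1.18 ± 0.32 (limma adjusted p = 0.0893), Nop58 0.76 ± 0.24 (limma adjusted p = 0.136) and Dkc1 0.74 ± 0.34 (limma adjusted p = 0.266). The median over all probe sets was −0.14 here, so these values are larger by that amount relative to it. The Gar1 call was lost without either deprived E2F1 array (limma adjusted p = 0.140 and 0.104), which leaves 1 array against 1 with a spread borrowed from the other groups. Nop56 was called without any 1 of the 4 arrays with LY294002 (limma adjusted p = 0.0444 to 0.0461).

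Whether the effect of E2F1 differed with the medium was tested directly. In limma 0 of 9 member probe sets passed for the difference between LY294002 and serum, as did 0% of all, and 0 of 9 for the difference between deprivation and serum, again with 0% of all. At an unadjusted p under 0.05 there were 0 and 1 member probe sets, and 998 and 1542 of all. For LY294002 minus serum, Gar1 differed by 0.06 (95% interval −0.75 to 0.87), Nop56 by 0.29 (−0.51 to 1.09) and Ncl by −0.40 (−1.39 to 0.59). For deprivation minus serum, Gar1 differed by 0.85 (−0.06 to 1.75; limma adjusted p = 0.534) and Nop56 by 0.27 (−0.62 to 1.17; limma adjusted p = 0.846).

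**Figure D3:**
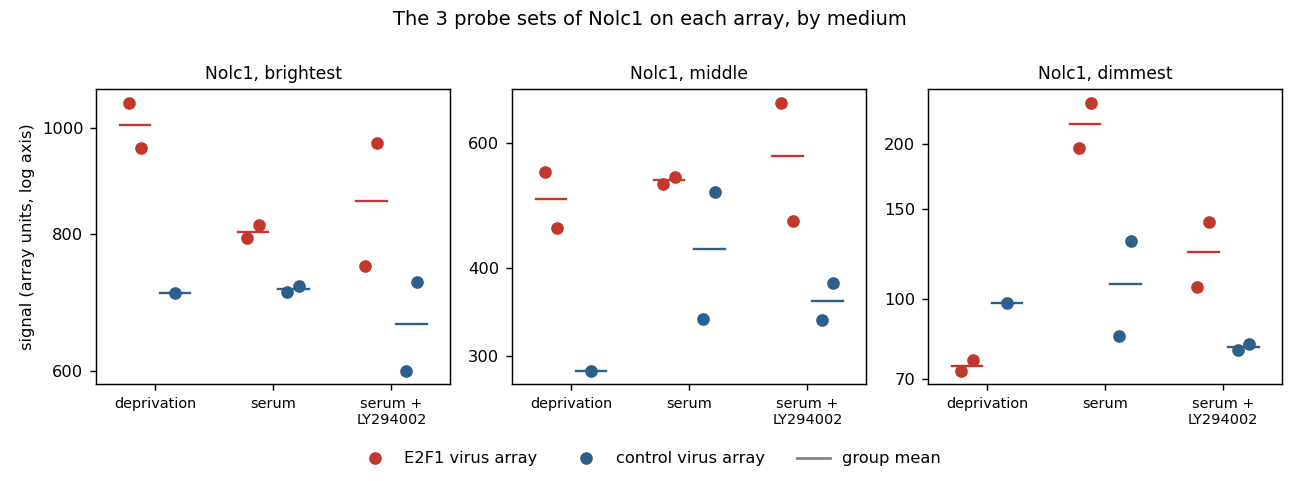
Signals of the 3 Nolc1 probe sets on each array (array units, log axis, lines at group means), by medium, with E2F1 arrays left of control virus arrays. In serum the points of the dimmest probe set in E2F1 cells, 197 and 241, lie above those of control virus cells, 84.9 and 129.6, and in deprivation the E2F1 points, 72.6 and 76.1, lie below the single control point, 98.5.

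The member at the unadjusted threshold was the dimmest Nolc1 probe set. This probe set of Nolc1 had 72.6 and 76.1 in deprivation, 197 and 241 in serum, and 106 and 141 with LY294002 in E2F1 cells, against 98.5 in deprivation, 84.9 and 129.6 in serum, and 79.6 and 81.8 with LY294002 in control virus cells. The effect of E2F1 in deprivation was lower than that in serum by 1.29 on the log2 scale (95% interval −2.12 to −0.46, limma adjusted p = 0.389). Its log2 change for deprivation against serum in E2F1 cells was −1.37 ± 0.23 (limma adjusted p = 0.0674), and it was called at the same value without either E2F1 array with LY294002 (limma adjusted p = 0.0340). The other 2 probe sets of the gene did not follow this pattern in deprivation, where both E2F1 arrays lay above the control array. The deprived arrays also had larger 3′ to 5′ differences than the serum arrays, and with that difference as a covariate the values were −1.14 for the difference of effects (limma adjusted p = 0.240) and −1.56 for deprivation against serum in E2F1 cells (limma adjusted p = 0.154).

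No member passed the test for a change of medium within a virus. LY294002 against none gave 0 of 9 calls in E2F1 cells, with log2 changes of −0.76 to 0.42, and 0 of 9 in control virus cells, with −0.33 to 0.50. In both comparisons limma called 0% of all probe sets, while 1 and 0 members, and 1769 and 1050 of all, had an unadjusted p under 0.05. Deprivation against serum gave 0 of 9 calls in E2F1 cells (0.233% of all called; 2 members and 3106 of all had an unadjusted p under 0.05), with Nop56 at 0.62 ± 0.25 (limma adjusted p = 0.226). In control virus cells it gave 0 of 9 (0.24% of all called; 1 member and 2217 of all had an unadjusted p under 0.05), with Gar1 at −0.82 ± 0.30 (limma adjusted p = 0.300), 1 array against 2. Comparisons within a virus share the serum arrays.

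Other genes listed for the nucleolus were measured on the same arrays in 6 lists, which also hold Rrbp1, of the endoplasmic reticulum. Of 164 genes listed 105 had a probe set, and in the average over the media 19 rose, 3 fell and 66 had a value above 0, with a median log2 change of 0.10, in a comparison in which 9.23% of all probe sets were called higher and 16.5% in either direction. The members had 6 of 7 genes raised and a median of 0.86. In serum the lists had 0 genes raised and 0 lowered (0.29% of all probe sets called higher). With LY294002 they had 6 raised and 1 lowered (3.78% of all called higher). In deprivation they had 1 raised and 1 lowered (2.19% of all called higher). Shares of all probe sets called lower in single media are not given here. The count of 22 called genes in the average fell most without either deprived E2F1 array or without the first E2F1 array in serum. It fell likewise without either control array in serum or without the first control array with LY294002. The number called over all probe sets fell in these runs too. In each of them a smaller share of the listed genes than of all probe sets was called.

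Among the other box H/ACA proteins and assembly factors 2 of 7 rose, where 9.23% of all probe sets were called higher. Wrap53, which brings these particles to Cajal bodies, had 507 to 655 in E2F1 cells and 162 to 290 in control virus cells (log2 change 1.34 ± 0.17, limma adjusted p = 0.00250). Nop10, a small core protein beside Gar1 and Dkc1, had 4020 to 6503 in E2F1 cells and 2387 to 4654 in control virus cells (0.86 ± 0.16, limma adjusted p = 0.0109). Nhp2, the remaining core protein, had a log2 change of 0.45 ± 0.14 (limma adjusted p = 0.0647). Among the other box C/D proteins and assembly factors 0 of 7 passed in limma, the smallest p belonging to Pih1d1, of the R2TP assembly complex, at 0.42 ± 0.14 (limma adjusted p = 0.0741).

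In the same average 9.23% of all probe sets were called higher. Of the RNA polymerase I genes 1 of 10 rose, with 4 values above 0 and a median log2 change of −0.16. The raised gene was Ubtf, the architectural factor of the ribosomal RNA promoter. It had 597 to 1243 in E2F1 cells and 386 to 516 in control virus cells (0.88 ± 0.13, limma adjusted p = 0.00483). Small subunit processing had 4 of 26 raised, among them Tsr1 (0.62 ± 0.14, limma adjusted p = 0.0209), Riok2 (0.56 ± 0.11, limma adjusted p = 0.0118) and Mphosph10 (0.51 ± 0.14, limma adjusted p = 0.0395). Large subunit processing had 10 of 43 raised and 1 lowered. Exosc7, a subunit of the RNA exosome, had 809 to 1275 in E2F1 cells and 367 to 525 in control virus cells (1.22 ± 0.15, limma adjusted p = 0.00251), Brix1 rose by 0.81 ± 0.12 (limma adjusted p = 0.00520), and the helicase Ddx54 fell by 0.46 (limma adjusted p = 0.0386). Of 12 genes in the list of nucleolar chaperones and scaffolds, not all of which encode nucleolar proteins, 2 rose and 2 fell. The raised genes were Rpp30 (0.86 ± 0.19, limma adjusted p = 0.0204) and Mphosph8 (0.40 ± 0.11, limma adjusted p = 0.0372). By medium, Rpp30 had log2 changes of 2.23 with LY294002, 0.25 in serum and 0.10 in deprivation. The fallen genes were Nol3 (−1.05 ± 0.13, limma adjusted p = 0.00250), whose protein is known as a repressor of apoptosis, and Rrbp1 (−0.65 ± 0.18, limma adjusted p = 0.0441), a ribosome-binding protein of the endoplasmic reticulum.

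**Figure D4:**
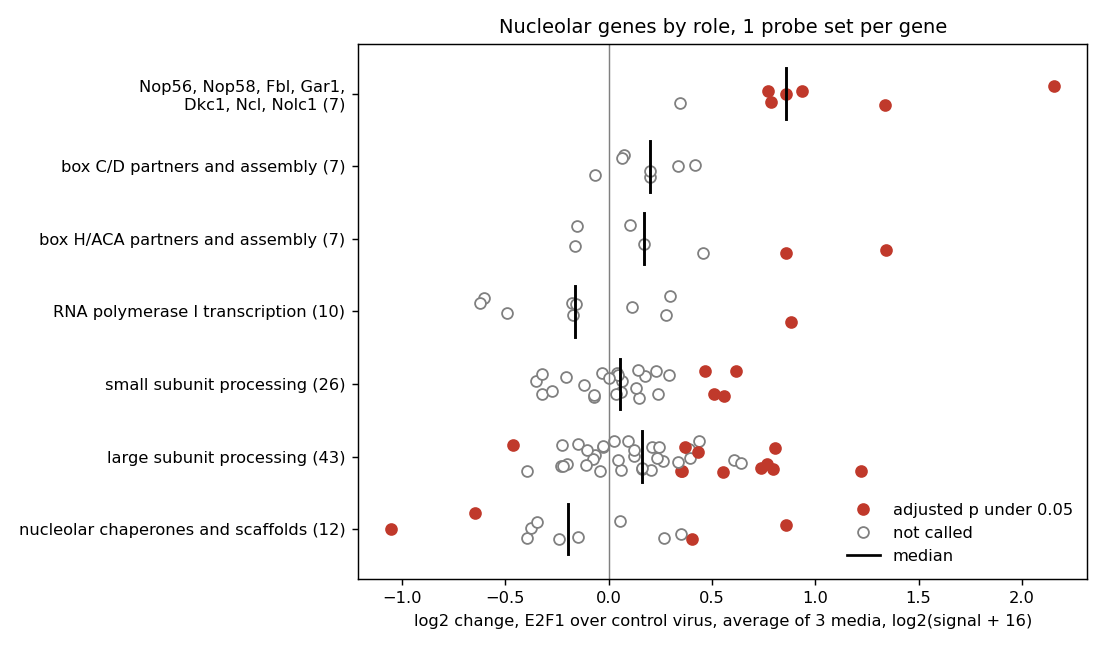
Average log2 change, E2F1 over control virus, of every measured gene in the members and in the 6 lists of other nucleolar genes, 1 row per list, with called genes filled and a bar at each list's median. The members' median stands at 0.86, and the medians of the lists lie between −0.19 and 0.20.

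The members also differed in their profile over the 11 arrays. The profiles were centred but not scaled, so the measure used here reflects the size of changes as well as their shape. After centring each log2 profile, the root mean square (RMS) difference between members was smallest, at 0.23, for Nop58 with Dkc1 and for the middle Nolc1 probe set with Dkc1, and largest, at 1.01, for Gar1 with the dimmest Nolc1 probe set. The genes closest to a member were sought among 9323 others on the same measure, for members whose group means spanned at least 1 on the log2 scale. Closest to Gar1 were Nasp (0.25) and Nelfe (0.29), and to Nop56 Ipmk (0.13) and Tprn (0.16). Closest to Fbl were Tial1 (0.11) and Phf6 (0.16), to Dkc1 Cntrl (0.18) and Ttl (0.19), and to Ncl Nop16 (0.17), which is itself nucleolar, and Tpgs2 (0.18). Closest to the dimmest Nolc1 probe set were Sowaha (0.26) and Ereg (0.27). The 11 arrays share the virus and the medium, so these values describe likeness and were not tested.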

How the data were processed

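Per the labels' protocols, 6 µg of REF52 RNA was labelled for each of 11 arrays. Deposited values are linear signal intensities of probe sets as the authors scaled them. MAS5 and RMA are named in the submitters' processing notes without a role or version. No depth exists for arrays, and their number limits the precision.

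Analysis used log2(signal + 16), with no rescaling of arrays. The 57 control probe sets were left out. In limma 3.58.1 (R 4.3.3; lmFit, eBayes), 6 group means were estimated from the 11 arrays together, with 5 residual degrees of freedom, and p-values were adjusted by Benjamini-Hochberg over 15866 probe sets within each of 10 comparisons, with a call at an adjusted p under 0.05. Fold changes are on this scale and understate changes of dim probe sets. On simulated data with 200 changed probe sets, the average comparison called 62% of the 2-fold and 92% of the 4-fold changes. Of the 2-fold changes 25% were called in serum, 27% with LY294002 and 11% in deprivation. In the data themselves the average comparison called 16.5% of the 15866 probe sets, a far larger share than was changed in the simulation. The strictness of the adjustment depends on that share, so the simulated rates may not hold for these data. The average comparison weights the 3 media equally.

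Genes were named from probe sets with 1 symbol (12783; 312 had several and 2771 none), of which 12773 were found in RefSeq (GRCr8). Each gene of a list was represented by its brightest probe set; all 9 member probe sets were reported. The members, the lists and the tests were chosen with earlier results of these data known. All members were named, and for a member the 2 closest genes. In each other list up to 3 genes could be named, ranked by the size of their log2 change separately for rises and falls. In the box C/D list, where no gene was called, the gene with the smallest p was named. Alternatives were quantile normalization, median centring, offsets of 1 and 64, a filter on the dimmest 30% of probe sets, trend and robust moderation, array weights, the replicate number as a block, a covariate for the gap between 3′ and 5′ signals, the compared groups alone, the mean of a gene's probe sets and leaving out arrays.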

Additional observations from a re-analysis of the deposited data

Results flagged for a closer look

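The effect of E2F1 on the dimmest of the 3 Nolc1 probe sets was −1.29 on the log2 scale in deprivation relative to serum. Both E2F1 arrays lay above both control virus arrays in serum, and both lay below the single control virus array in deprivation. The test of the difference itself did not pass in limma (adjusted p = 0.389). The same difference was 0.33 and 0.43 for the other 2 Nolc1 probe sets. The 3′ to 5′ difference was 0.51 to 0.76 on the deprived arrays, and with it as a covariate the Nolc1 value was −1.14 (limma adjusted p = 0.240).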

How the results depend on the processing

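In the average over the media, Gar1 (1.88 to 2.27), Nop56 (1.25 to 1.42), Nop58 (0.73 to 0.84), Fbl (0.83 to 1.04) and Dkc1 (0.71 to 1.03) were called under all 22 alternatives, Ncl (0.66 to 0.88) under 15 of 22, the middle Nolc1 probe set under 11 of 21, the brightest under 3 of 22 and the dimmest under 0 of 21. The count of called member probe sets in serum, 1, was 0 with median centring, with an offset of 1, with the compared groups alone and without both second arrays with LY294002, and 2 with array weights. With LY294002 the count, 2, was 4 with an offset of 64, with the dimmest 30% left out and with trend and robust moderation, and 0 with array weights, with the compared groups alone and without both second arrays with LY294002. In deprivation the count, 1, was 2 with quantile normalization, an offset of 64, the dim filter and trend and robust moderation, 3 with array weights and with the 3′ to 5′ covariate, 0 with the groups alone and 4 without both second arrays with LY294002. For deprivation against serum in E2F1 cells the count, 0, was 1 with an offset of 64, the dim filter, array weights or without both second arrays with LY294002. The number called over all probe sets moved too. In serum it was 37 with median centring, 5 with an offset of 1 and 522 with array weights. With LY294002 it was 1183 to 1311 beside 4 members, and 51 with array weights. In deprivation it was 516 to 807 beside 2 members and 965 to 1223 beside 3. For deprivation against serum in E2F1 cells it was 126 to 1173 beside 1 member. With the compared groups alone it was 0 in all 3 media. The 22 other nucleolar genes became 14 with median centring, beside 2487 of all. Leaving out 1 array gave 5 to 7 member probe sets in the average, 0 to 1 in serum, 1 to 2 with LY294002, 0 to 2 in deprivation, 0 to 1 for deprivation against serum in E2F1 cells and 9 to 23 other nucleolar genes; the average and the deprivation comparisons between viruses, and deprivation against serum in control virus cells, cannot be made without the deprived control array. With the 3′ to 5′ covariate the count with LY294002 was again 2, with Nop56 lost and Dkc1 gained. Some values changed sign. For differences of the E2F1 effect and changes of medium within a virus, 54 member values had 1170 alternatives. Of these alternatives 64 changed sign, with 0 of them called. The values concerned were at most 0.35 in size in the main analysis. The E2F1 effect on Ncl with LY294002 was −0.034 with the 3′ to 5′ covariate. The LY294002 minus serum difference of Gar1 was −0.0069 with that covariate, and ran from −0.29 to 0.40 when 1 array was left out, below 0 at −0.05 without the second E2F1 array in serum, −0.29 without the second control array in serum and −0.10 without the first control array with LY294002. The differences of array 2 from array 1 were correlated between groups over all probe sets (10 pairs of groups, −0.02 to 0.30, 1 over 0.1). The 0.30 was between E2F1 and control virus cells with LY294002. Whether arrays of the same number were handled together there is not named in the labels and was not tested. With the replicate number as a block the serum count was 0, beside 3 of all probe sets. There the adjusted p of Gar1 was 0.0698 in limma. The causes of these changes were not tested.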
